A study of Mesocentrotus franciscanus with 18 samples.

Results

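Sm29 (SPU_005990), SM30E (SPU_004867) and EBP (SPU_013736) are 3 of the 127110 features measured by RNA-Seq in the red sea urchin Mesocentrotus franciscanus. They were chosen by their counts in Aristotle's lantern muscle (ALM), which were lower in Large than in Small animals, so the ALM values are given as a description and were not tested. The libraries came from ALM, the muscle of the chewing apparatus, from esophagus (ES) and from radial nerve cord (RN) of wild animals of the Small and Large size categories, which the study used as young and old. There were 18 libraries in 6 groups of 3, named by the tissue and by S for Small or L for Large (RN-S or RN-L, for example), with 1 for each of the sampling years 2010, 2011 and 2013. Each library was a pool of RNA from several animals, so the spread within a group was between pools and years and not between animals.

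The echinoderm skeleton is calcite grown around a small amount of secreted protein. Sm29 and SM30E encode spicule matrix proteins, which in the purple sea urchin Strongylocentrotus purpuratus are secreted by skeleton-forming cells, carry a C-type lectin-like domain and become enclosed in the mineral. In the embryo these cells are the primary mesenchyme cells, and in the adult they are the sclerocytes. EBP encodes echinenone-binding protein, named for a carotenoid of sea urchins and annotated in the study as similar to the fatty acid-binding proteins, which are small lipid carriers of the cytoplasm. The study counted Sm29 and SM30E under biomineralization and EBP under metabolism, so EBP is treated here as a separate kind of gene. Gene names are those of the S. purpuratus genes to which the study matched the assembled transcripts.

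SM30E and EBP were also measured by qRT-PCR in the study, and its primers are shown because they give the stretches by which these transcripts can be found in an assembly. All 4 are written in lower case in the order the study printed them, with no letter marked. That order is read as 5′ to 3′ by convention, since the study does not state it. The reverse primers match the strand opposite to the transcript. The SM30E primers had 19 and 21 bases with a GC content of 57.9 and 52.4%, and the EBP primers had 20 and 18 bases with a GC content of 50 and 55.6%.
SM30E forward: ccaagcccagttccaagga
SM30E reverse: gttggcgattaccaggttgac
EBP forward: ttcgacatcacgagcgaaac
EBP reverse: caaagcttggcccgacat

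Each of the 3 genes was held by 1 assembled gene grouping. Total counts ranged from 7383210 to 11547218 per library, and a count of 0 allowed a level of up to 0.216 to 0.657 CPM (counts scaled to a common library size) depending on the library, taken as 3 counts and covering counting error only. CPM were normalized by the trimmed mean of M-values (TMM) over the 18 libraries. The labelled tissues were checked against linked marker genes. The summed level of 3 muscle genes (Tropmy1, Actinin and Calpn) was 24867 to 70940 CPM in ALM, 1622 to 2994 in ES and 1825 to 2319 in RN-L. In RN-S it was 13884 to 40319 CPM, which overlapped with ALM, so these genes did not separate ALM from RN-S. The muscle genes were listed by the study for a difference with size in ALM or RN of these libraries. Their level is therefore no independent check of the tissue. The summed level of 4 nerve genes (Neurx, Pclo, Syt17 and Syt12) was 206.6 to 236.4 CPM in RN-L but 23.39 to 34.99 in RN-S, within the 21.6 to 85.78 of ALM. The nerve genes were listed by the study for their difference between RN-S and RN-L in these libraries, so their low level in RN-S restates that choice and does not measure how much nerve tissue a pool held. By the prefixes of the library names in the labels, the 3 RN-L libraries belonged to 1 series, RN-S 2010 and 2011 to another and the other 13 libraries to a further one, so that series and size cannot be told apart in RN, nor series and tissue between RN-L and ES-L.

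The 3 genes had different patterns over the 6 groups. Sm29 had its highest mean in RN-S, at 117.8 ± 79.6 CPM, followed by ALM-S at 85.1 ± 18.9, RN-L at 12.3 ± 8.93, ALM-L at 4.42 ± 1.22, ES-L at 0.612 ± 0.872 and ES-S at 0.0308 ± 0.0533 (SD, n = 3 each). Neighbours in this order overlapped between RN-S and ALM-S, between RN-L and ALM-L and between ES-L and ES-S, which left 3 levels that did not overlap. SM30E was highest in ALM-S at 28.5 ± 13.3 CPM and overlapped there with RN-S at 17.5 ± 8.18, while ALM-L at 1.90 ± 1.15, ES-S at 0.585 ± 0.189, RN-L at 0.368 ± 0.321 and ES-L at 0.215 ± 0.372 each overlapped with the next. EBP was highest in RN-L at 797.9 ± 304.9 CPM and RN-S at 676.4 ± 143.3, which overlapped, and then in ALM-S at 168.7 ± 78.9 and ES-S at 79.7 ± 15.2, which also overlapped. It was lowest in ES-L at 36.4 ± 13.7 and ALM-L at 15.4 ± 3.27 CPM, and these did not overlap with each other. Levels are compared here between groups for 1 gene at a time and not between genes, since transcript lengths were not used.

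**Figure D1:**
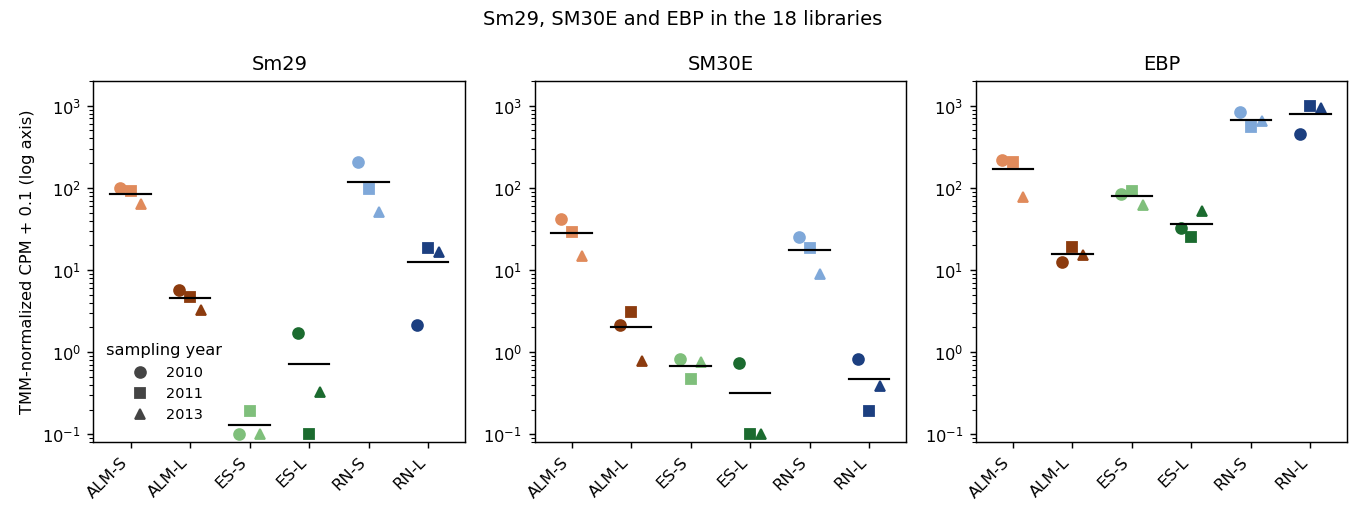
TMM-normalized CPM plus 0.1 on a log axis for Sm29, SM30E and EBP in each of the 18 libraries, by group. Circles, squares and triangles are the libraries of 2010, 2011 and 2013 and black lines are group means; Sm29 and SM30E were high in ALM-S and RN-S, and EBP was at 447 CPM or more in all 6 RN libraries.

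The comparison of RN-L with RN-S asked how the genes changed with size in the nerve cord, in libraries whose counts did not choose them. Sm29 and SM30E were lower in RN-L and EBP was not called. The RN-L libraries form a series that holds no RN-S library, so size and library series cannot be told apart here. A call required an edgeR adjusted p (Benjamini-Hochberg, quasi-likelihood F-test) under 0.05 together with a change of more than 1 on the log2 scale. In RN 21.7% of the 29011 features tested passed, 10.3% of all tested as lower and 11.4% as higher in RN-L. Of the 3 genes, 2 were called lower and 0 higher. Sm29 and SM30E also stand on the study's own list of genes altered in RN, which was drawn from these libraries, so their calls are not independent evidence of that direction. In RNA from whole tissue, fewer cells of a type and less RNA of a gene in each cell cannot be told apart.

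Sm29 was at 206, 96.4 and 51.1 CPM in RN-S of 2010, 2011 and 2013, against 2.06, 18.5 and 16.3 CPM in RN-L. All 3 RN-S libraries were above all 3 RN-L libraries, and the RN-L library of 2010 lay well below the other 2. Its log2 fold-change was -3.34 (edgeR, SE 0.80, adjusted p = 0.0220). The level was lower in Large in 3 of 3 years, with log2 ratios of -6.64, -2.38 and -1.65 in the same order of years. The call was lost under a replicate block by year, where the edgeR adjusted p was 0.0669. It was also lost in edgeR fits without RN-S 2010 (adjusted p = 0.0785), RN-S 2011 (adjusted p = 0.0538), RN-L 2011 (adjusted p = 0.0517) or RN-L 2013 (adjusted p = 0.0631), with log2 fold-changes from -3.74 to -2.71 over the 6 libraries left out.

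SM30E was at 25.1, 18.4 and 8.85 CPM in RN-S and at 0.722, 0.0940 and 0.288 CPM in RN-L. These are 260, 215 and 81 counts in RN-S and 7, 1 and 4 counts in RN-L, so the gene was close to the limit of detection in each RN-L library. The groups did not overlap. The gene passed the filter on low counts only through RN-S, where it was high, so a call of lower was close to fixed. Its levels are the better description. The log2 fold-change was -5.64 (edgeR, SE 0.68, adjusted p = 0.00272), and the call was kept without each of the 6 libraries in turn (edgeR adjusted p from 0.00272 to 0.0198). Summed over the 3 libraries, 556 counts stood against 12, a ratio of 50.9 with an exact 95% interval of 28.9 to 99.2 that covers counting error only. SM30E belongs to a family of similar SM30 genes, and reads shared between copies were divided by the authors' counting, so its level is uncertain to that extent.

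Sm30D (SPU_000828), the other SM30 gene of the biomineralization list, is given beside it for that reason and was chosen for mention after its values were seen. It had 61, 40 and 41 counts in RN-S and 2, 9 and 9 in RN-L, without overlap, and a log2 fold-change of -3.06 (edgeR, SE 0.54, adjusted p = 0.00807). Sm30D passed the filter in RN only through RN-S, so a call of lower was close to fixed. In ALM, by contrast with SM30E, its levels overlapped between the sizes, at 4.82, 1.75 and 0.466 CPM in ALM-S and 1.302, 0.626 and 1.87 CPM in ALM-L.

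EBP was at 828, 544 and 657 CPM in RN-S and at 447, 997 and 949 CPM in RN-L. The groups overlapped, since the lowest RN-L library was below and the other 2 above all RN-S libraries. Its log2 fold-change of 0.15 (edgeR, SE 0.35, adjusted p = 0.779) was within the spread between libraries, and the log2 ratio of Large to Small was -0.89 in 2010, 0.88 in 2011 and 0.53 in 2013. RN-L 2010 was therefore the lowest RN-L library for both Sm29 and EBP, but the highest for SM30E.

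Genes of other cell types differed with size in the same RN libraries. The study listed them for a difference with size in RN or ALM of these libraries, the nerve genes in RN, so the counts called are no independent evidence of direction. Over all features tested in RN, 10.3% were called lower and 11.4% higher. All 3 linked muscle genes of 4 on the list were called lower in RN-L, their log2 fold-changes running from -5.33 to -2.46 around a median of -3.28, and none was at 0 in any RN library. Their summed level was 13884 to 40319 CPM in RN-S and 1825 to 2319 CPM in RN-L. Calpn, picked from them after the values were seen, encodes calponin, an actin-binding protein of smooth muscle, and was at 25981, 11226 and 6037 CPM in RN-S and 177.7, 604.3 and 351.5 CPM in RN-L. Over the 6 libraries Calpn and Sm29 were thus both highest in RN-S 2010 and lowest in RN-L 2010. Tropmy1 and Actinin were also highest in RN-S 2010, but their lowest library was RN-L 2013, at 456 and 1017 CPM.

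All 6 linked genes of 9 on the fibrillar matrix list, which are collagens and Sparc_2, were also called lower in RN-L (log2 fold-changes -4.41 to -2.95), and their summed level was 1890 to 3491 CPM in RN-S against 132.6 to 340.4 CPM in RN-L. All 4 linked nerve genes of 6 on the list were called higher in RN-L, with log2 fold-changes from 2.17 to 3.13, and none was at 0 in any RN library. The part of these other genes in the results for Sm29 and SM30E was not tested.

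**Figure D2:**
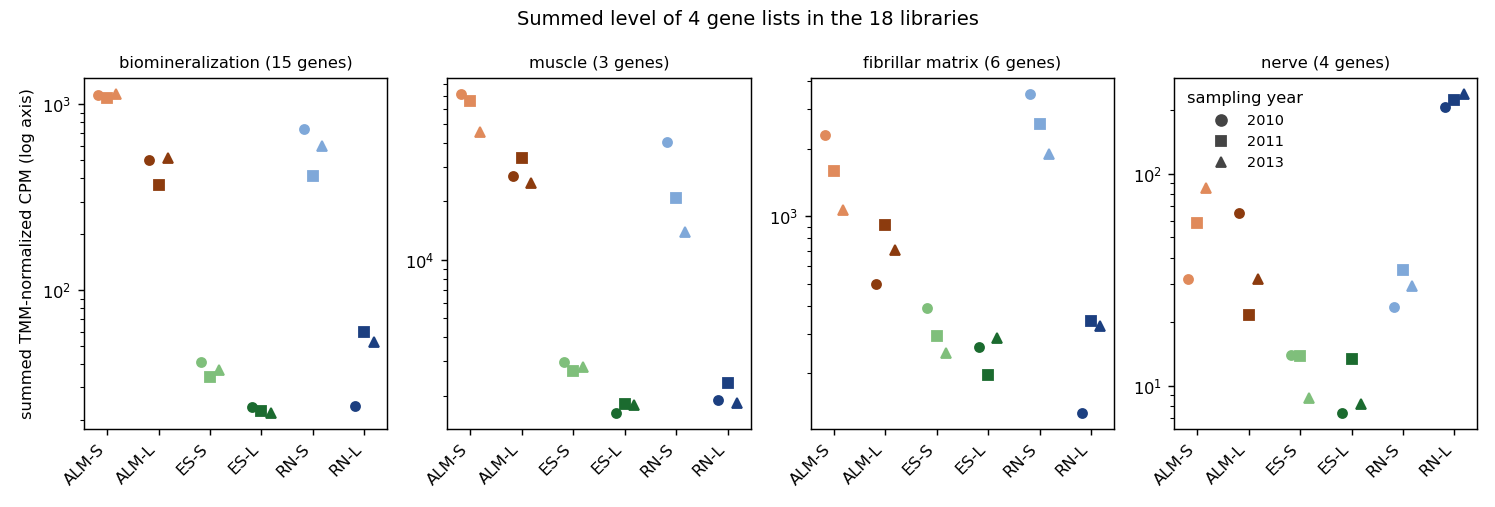
Summed TMM-normalized CPM on a log axis of the linked genes of 4 lists in each of the 18 libraries, by group, with the sampling year as the symbol. Between RN-S and RN-L the biomineralization, muscle and fibrillar matrix lists were lower and the nerve list higher in RN-L, with no overlap between the groups.

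In ES, Sm29 and SM30E were at or near the limit of detection. Sm29 had 0, 1 and 0 counts in ES-S and 10, 0 and 3 counts in ES-L, or at most 1.61 CPM, and a count of 0 allowed up to 0.308 CPM in ES-S 2010, 0.286 in ES-S 2013 and 0.266 in ES-L 2011. SM30E had 7, 4 and 7 counts in ES-S and 4, 0 and 0 in ES-L, or at most 0.719 CPM. Neither gene passed the filter on low counts, so the effect of size on them in ES was not tested. Of the 13 counts of Sm29 in ES-L, 10 came from the 2010 library.

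EBP was expressed in ES at 84.8, 91.6 and 62.6 CPM in ES-S and at 32.0, 25.4 and 51.8 CPM in ES-L. The groups did not overlap, and the level was lower in Large in 3 of 3 years with log2 ratios of -1.40, -1.85 and -0.27. The log2 fold-change of -1.03 (SE 0.37) was not past the threshold (edgeR adjusted p = 0.527, unadjusted p = 0.0239), nor was it with DESeq2 (adjusted p = 0.351). In this tissue 0.00332% of 30159 features were called, the 1 of them higher in ES-L.

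The same genes were then compared between the nerve cord and the esophagus of animals of 1 size. Pools of both tissues from 1 size and year can share animals, and the fits here did not use this pairing. With a replicate block by year, EBP was still called higher in RN-S than in ES-S (edgeR adjusted p = 5.04e-06). All 3 genes were called higher in RN-S than in ES-S, but Sm29 and SM30E passed the filter only through RN-S, so a call of higher was close to fixed for them and their levels are the better description. Here 36.6% of 30359 features were called, 16.3% as higher and 20.3% as lower in RN-S. The 3 RN-S libraries held 3723 counts of Sm29 against the single count of the 3 ES-S libraries, a ratio of 3710 with an exact 95% interval of 666 to 147000 for counting error only, and the fitted log2 fold-change was 11.39 (edgeR, SE 0.86, adjusted p = 1.07e-05). SM30E had a log2 fold-change of 4.90 (edgeR, SE 0.49, adjusted p = 5.50e-05) and EBP of 3.10 (edgeR, SE 0.27, adjusted p = 2.57e-05), and for each of the 3 genes every RN-S library was above every ES-S library. The lowest RN-S library of Sm29 and SM30E, that of 2013, is the only RN-S library in the library series of ES-S, and it too lay above all ES-S libraries, by a log2 ratio of 10.70 to the ES-S mean for Sm29, 3.92 for SM30E and 3.04 for EBP, given with no test.

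Between RN-L and ES-L, 2 of the 3 genes were tested and both were called higher in RN-L, where 28.7% of 29854 features were called, 12.8% as higher and 15.9% as lower. All RN-L libraries are of one library series and all ES-L libraries of another, so tissue and series cannot be told apart in this comparison, and Sm29 passed its filter only through RN-L. EBP had a log2 fold-change of 4.42 (edgeR, SE 0.54, adjusted p = 0.000730), with 447 to 997 CPM in RN-L against 25.4 to 51.8 CPM in ES-L. Sm29 had a log2 fold-change of 4.48 (edgeR, SE 1.25, adjusted p = 0.0254), with 444 counts over the RN-L libraries against 13 over the ES-L libraries. The call of Sm29 was lost under a replicate block by year (edgeR adjusted p = 0.0702) and in edgeR fits without ES-L 2011 (adjusted p = 0.0603), ES-L 2013 (adjusted p = 0.0917), RN-L 2011 (adjusted p = 0.0711) or RN-L 2013 (adjusted p = 0.0668). SM30E, with 12 counts in RN-L and 4 in ES-L, did not pass the filter.

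Whether size had a different effect in RN than in ES was tested as the interaction of tissue and size over the 12 libraries of both tissues, where 3.9% of 36884 features were called, 2.1% with a lower and 1.8% with a higher effect in RN. Size and library series cannot be told apart in RN, so they cannot be told apart in this interaction either. EBP, which passed the filter in both tissues, had a difference of log2 fold-changes (RN minus ES) of 1.32 (edgeR, SE 0.53, adjusted p = 0.183, unadjusted p = 0.0260) and was not called by edgeR or by DESeq2 (adjusted p = 0.0955). SM30E entered this fit through its counts in RN-S alone and Sm29 through its counts in RN. The effect of size in ES that the fit subtracts rests on 1 against 13 counts of Sm29 and on 18 against 4 counts of SM30E. No difference between the tissues is therefore read for these 2 genes.

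In ALM, where the genes were chosen, the level of each was lower in every Large library than in every Small library, as the choice of the genes implies. Sm29 was at 99.7, 91.9 and 63.8 CPM in ALM-S and 5.58, 4.54 and 3.15 CPM in ALM-L, and its log2 ratio of Large to Small was -4.16, -4.34 and -4.34 in the 3 years, a narrower range than in RN. SM30E was at 41.4, 29.2 and 14.8 CPM in ALM-S and 2.05, 2.97 and 0.690 CPM in ALM-L, with log2 ratios of -4.34, -3.29 and -4.42. EBP was at 219.8, 208.5 and 77.9 CPM in ALM-S and 12.3, 18.8 and 15.1 CPM in ALM-L, with log2 ratios of -4.16, -3.47 and -2.37. In ALM 0.00408% of 24482 features were called, from which nothing is read about these genes. The fit to the 6 ALM libraries gave log2 fold-changes of -4.26 (SE 0.40) for Sm29, -3.92 (SE 0.61) for SM30E and -3.46 (SE 0.46) for EBP. For all 3 genes ALM-S 2013 was the lowest ALM-S library, as RN-S 2013 was the lowest RN-S library for Sm29 and SM30E. Over the same libraries the 3 muscle genes summed to 45431 to 70940 CPM in ALM-S and 24867 to 33438 CPM in ALM-L, and their part in these values was not tested.

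The ratio of counts of 2 genes within a library does not depend on the normalization. Sm29 had 2.41, 3.15 and 4.31 counts for each count of SM30E in ALM-S, and 2.73, 1.53 and 4.57 in ALM-L, so the ratio overlapped between sizes. It was 8.20, 5.23 and 5.78 in RN-S, above all 6 ALM libraries. The exact 95% intervals of RN-S 2011 (4.51 to 6.08) and 2013 (4.56 to 7.41) overlapped that of ALM-S 2013 (3.54 to 5.27), however. The interval of ALM-L 2013 (1.98 to 12.3) overlapped all those of RN-S. RN-S 2010 and 2011 are also of another library series than ALM. In RN-L the ratio was 2.86 in 2010 (exact 95% interval 1.16 to 8), 197 in 2011 (34.9 to 7820) and 56.8 in 2013 (21.9 to 210). In the latter 2 libraries SM30E was thus lower than in RN-S by more than Sm29 was. The RN-L ratios rest on 7, 1 and 4 counts of SM30E, and the intervals cover counting error only.

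EBP had 2.20, 2.27 and 1.22 counts for each count of Sm29 in ALM-S and 2.20, 4.14 and 4.78 in ALM-L. In RN the same ratio was 4.02, 5.64 and 12.9 in RN-S and 217, 53.9 and 58.2 in RN-L, without overlap between the sizes. In ALM this ratio overlapped between the sizes.

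**Figure D3:**
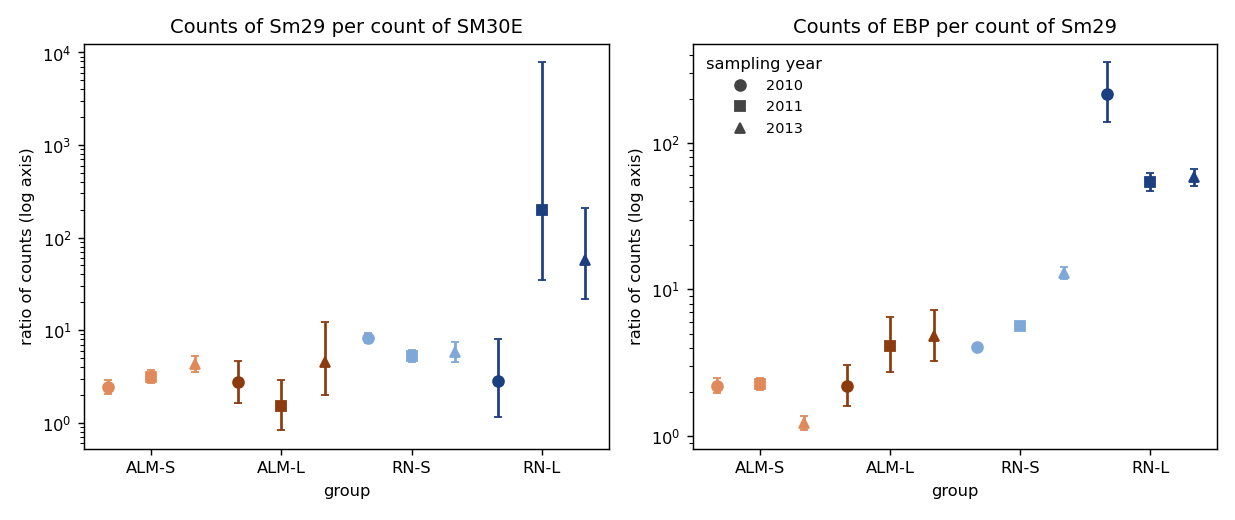
Counts of Sm29 per count of SM30E (left) and counts of EBP per count of Sm29 (right) in the ALM and RN libraries, on a log axis, with exact 95% intervals that cover counting error only and the sampling year as the symbol. The Sm29 to SM30E ratio lay between 1.53 and 8.20 in all libraries but RN-L 2011 and 2013, and the EBP to Sm29 ratio was highest in RN-L.

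The other 13 genes of the biomineralization list, which joins the study's ALM and RN genes of that category and was therefore drawn from these libraries, were all linked to groupings. In RN 12 passed the filter. Most of these passed only through RN-S, so that a call of lower was close to fixed for them. Of the 12, 9 were called lower in RN-L and 0 higher, where 10.3% of all 29011 features tested were called lower. Of those called, only Msp130r2 and Cara14LA also passed through RN-L, so this count is not read as a result. The 12 genes had a median log2 fold-change of -3.55 and a range of -6.02 to -0.66, beside a median of -0.04 over all features tested. Sm29 at -3.34 lay near the median of these genes, and of the 12 only Sm37 lay below SM30E at -5.64. In ALM, where they were not tested here, all 13 had negative log2 fold-changes, from -3.89 to -0.77 with a median of -2.81, while Sm29 at -4.26 and SM30E at -3.92 lay just below this range.

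Among the 12 genes tested in RN, the largest fitted changes were those of Sm37, Sm32, C-lectin/PMC1 and Cara14LA. Sm37 and Sm32 encode spicule matrix proteins of S. purpuratus, C-lectin/PMC1 a C-type lectin of its primary mesenchyme cells, and Cara14LA a carbonic anhydrase-like protein, of the enzyme family that interconverts carbon dioxide and bicarbonate. Sm37 had 19, 36 and 24 counts in RN-S and 0, 1 and 0 in RN-L, a ratio of summed levels of 86.8 (exact 95% interval for counting error only, 15.1 to 3470), and a log2 fold-change of -6.02 (edgeR, SE 0.82, adjusted p = 0.00364). Sm32 had 207, 179 and 85 counts in RN-S and 0, 6 and 12 in RN-L, with a log2 fold-change of -4.95 (edgeR, SE 0.76, adjusted p = 0.00505). Sm37 and Sm32 passed the filter only through RN-S, so a call of lower was close to fixed for both.

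C-lectin/PMC1 had 216, 94 and 35 counts in RN-S and 0, 1 and 14 in RN-L, with a log2 fold-change of -4.80 (edgeR, SE 1.06, adjusted p = 0.0167), a call lost without RN-S 2010 (edgeR adjusted p = 0.0696) or RN-L 2011 (edgeR adjusted p = 0.0558). C-lectin/PMC1 too passed the filter only through RN-S. Cara14LA was at 367, 210.0 and 454 CPM in RN-S and 8.04, 25.6 and 15.4 CPM in RN-L, with a log2 fold-change of -4.49 (edgeR, SE 0.51, adjusted p = 0.00235). In all 4 the groups did not overlap and RN-L 2010 was the lowest library or at 0, as it was for Sm29. Of the 3 genes tested but not called in RN, Cara7LA (-0.87), p58-b (-0.66) and Clect_13 (-1.98) had log2 fold-changes of -2.81, -3.79 and -3.89 in ALM, and these 3 were chosen for mention after their values were seen.

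**Figure D4:**
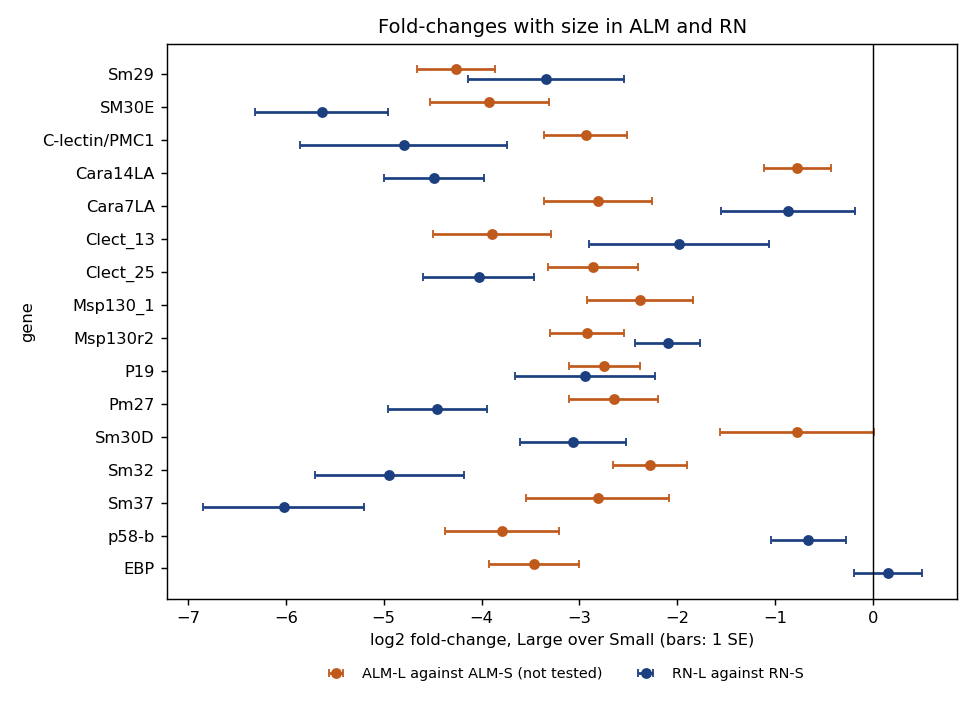
Log2 fold-change of Large over Small with its SE in ALM (orange, not tested) and RN (blue) for the 15 genes of the biomineralization list and EBP; Msp130_1 did not pass the filter in RN. EBP was at -3.46 in ALM and 0.15 in RN, whereas SM30E and Sm29 were below -3 in both tissues.

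In ES the biomineralization list was at 21.8 to 40.9 CPM in sum, against 1084 to 1131 CPM in ALM-S, and 4 to 8 of its 15 genes were at 0 in each library. With 2 of the other 13 genes past the filter in ES, none was called there between the sizes by edgeR or DESeq2, and 1, Cara14LA, had an unadjusted p under 0.05 in edgeR. Between RN-S and ES-S 12 of the other 13 genes were tested, but most were at or near 0 in ES-S and passed the filter only through RN-S, so that their call as higher in RN-S was close to fixed and is not read as a result. Between RN-L and ES-L 3 of the 13 were tested and 1, p58-b, was called higher in RN-L, with a log2 fold-change of 3.71 (edgeR, SE 0.73, adjusted p = 0.00537). With 0, 2 and 4 counts in ES-L, p58-b passed the filter only through RN-L, so this call too was close to fixed. It is not read as a result, and tissue and library series cannot be told apart in it.

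**Figure D5:**
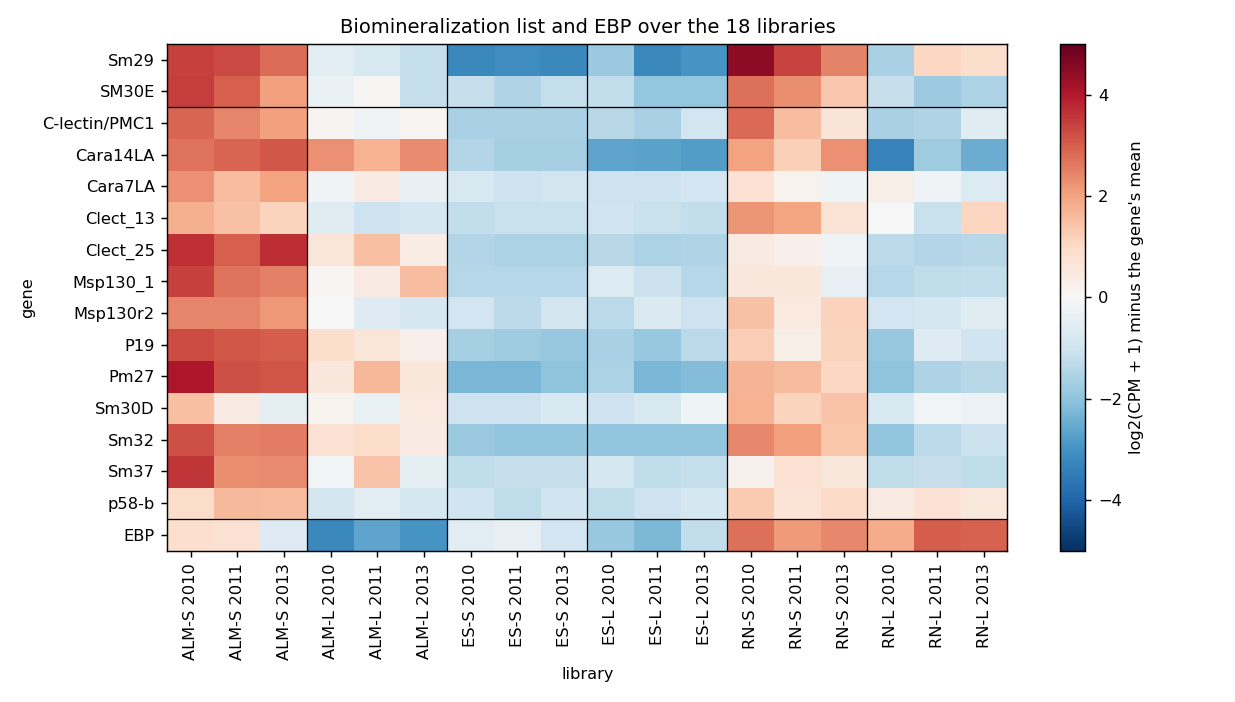
Log2(CPM + 1) minus each gene's mean over the 18 libraries for Sm29 and SM30E (top), the other 13 genes of the biomineralization list and EBP (bottom), with libraries in columns. Red marks libraries above the gene's own mean and blue those below it, and EBP was above its mean in all 6 RN libraries while Sm29 was above it in 5 of them and SM30E in the 3 of RN-S.

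Fabp2L2 (SPU_004345), a linked gene annotated as fatty acid-binding like EBP, had another pattern. It was at 59.3, 246.9 and 16.4 CPM in ES-S and 100.0, 13.0 and 1.65 CPM in ES-L, where EBP was at 25.4 to 91.6 CPM. In RN it was at 1.84, 1.03 and 6.55 CPM in RN-S and 0, 0.658 and 0.144 CPM in RN-L, a log2 fold-change of -3.59 (edgeR, SE 1.06, adjusted p = 0.0434), whereas EBP was not called. That call was lost under a replicate block by year (edgeR adjusted p = 0.0897), in the fit to all 18 libraries (edgeR adjusted p = 0.116), with total counts in place of TMM (edgeR adjusted p = 0.0588) and without each RN library but RN-L 2011 (edgeR adjusted p from 0.045 to 0.163 over the 6 libraries). Fabp2L2 passed the filter in RN only through RN-S, so the direction of any call was close to fixed. In ALM it was at 8.11, 4.31 and 2.797 CPM in ALM-S and 0.186, 1.72 and 0.295 CPM in ALM-L, with a log2 fold-change of -2.89 (SE 0.82), given as a description. Fabp2L2 was called lower in RN-S than in ES-S, with a log2 fold-change of -5.11 (edgeR, SE 1.03, adjusted p = 0.00318), and EBP was called higher.

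Across libraries the 3 genes varied together to different degrees, given here as a description over libraries that share tissues and groups. On log2(CPM + 1) the Pearson correlation of Sm29 and SM30E was 0.868 over the 18 libraries, 0.978 over the 6 of ALM and 0.843 over the 6 of RN. EBP correlated with Sm29 at 0.969 in ALM and 0.290 in RN, and with SM30E at 0.976 in ALM and -0.251 in RN. The values in ALM follow from the choice of the genes in that tissue.

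Among 39510 other features, those most like SM30E over the 18 libraries included 3 of the biomineralization list, C-lectin/PMC1 (0.951), Sm32 (0.936) and Msp130r2 (0.933), among its 5 most alike, and 9 genes of the list were among its 100 most alike. For Sm29 the 5 most alike included 1 linked gene, Rassf9L (SPU_013411, 0.939), behind the unlinked grouping TRINITY_DN18594_c0_g2 (0.942), and 6 genes of the list were among its 100 most alike. For EBP the 5 most alike, at 0.905 to 0.917, were all unlinked groupings, with TRINITY_DN9065_c0_g1 the first, and no gene of the list was among its 100 most alike. By Spearman correlation over the 18 libraries, 0 of the 5 most like SM30E were on the list. Over the 12 RN and ES libraries, which the choice by ALM counts did not use, the 5 features most like SM30E included Clect_25 (0.987) of the biomineralization list and the muscle gene Tropmy1 (0.982). Those most like EBP included Gucy1b3 (0.978), named for a guanylate cyclase subunit. Over these 12 libraries the genes of the list among the 100 most alike numbered 3 for SM30E, 0 for Sm29 and 0 for EBP. The counts over 18 libraries thus rest in part on the ALM libraries that chose the genes. The study listed these genes, with Sm29 and SM30E, for a difference with size in ALM or RN of these libraries. Their likeness to Sm29 and SM30E is therefore in part built in.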

How the data were processed

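Groups and years of the 18 pooled libraries were taken from the sample titles, while another label gives 2010 for all RN libraries. Per the labels and the study's methods, reads were trimmed with Trimmomatic 0.38, assembled de novo with Trinity and aligned with Bowtie2 2.3.4. The authors deposited RSEM estimated counts (expected counts) per Trinity grouping as whole numbers, without normalization, and no genome build was used. Reads of similar gene copies were thus assigned by RSEM. All per-sample columns were used.

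The deposited table names no genes. Groupings were linked to S. purpuratus genes where their counts, alone or as the sum of a pair, equalled those printed in the study's supplementary tables, or where 1 grouping held at least 95% of them. This linked 741 genes and left 127110 features. Sm29, SM30E and EBP each equalled 1 grouping in ALM. The genes, lists and tests were chosen with earlier results of these data known, and the lists hold genes that the study named from these libraries. Primer sequences were copied from its supplementary tables.

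Counts were tested in R 4.3.3 with edgeR 4.0.16 (filterByExpr, TMM, quasi-likelihood F-test) on the libraries of each comparison, with Benjamini-Hochberg adjustment over all features tested. Calls needed an adjusted p under 0.05 and a change above 1 on the log2 scale. The SE is the size of the log2 fold-change over the square root of F. The procedure was tested on simulated data. P-values measure the spread between pools and years. Alternatives were DESeq2 1.42.0, other normalizations, no filter, year as a block, a fit to all 18 libraries and each library left out. Libraries of a year share a collection, which is the source of the pairing. By the study's methods the 3 tissues were dissected from the collected animals, so pools of 1 size and year can share animals. The main fits did not use the pairing. Same-year deviations of Small and Large in RN correlated at -0.06, -0.10 and 0.04. Those of RN-S and ES-S correlated at 0.26 to 0.32, and those of RN-L and ES-L at 0.16 to 0.29. Exact intervals are Clopper-Pearson at 95%. Named genes are the 3 genes, the 4 largest changes in RN among the other biomineralization genes, Fabp2L2 and, for each of the 3, the 5 features most like it, with at most 2 unlinked groupings named. Summaries used Python 3.11.15, pandas 2.3.3 and SciPy 1.17.1.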

Additional observations from a re-analysis of the deposited data

Results flagged for a closer look

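For 2 genes of the biomineralization list the difference between Large and Small was called as unlike in RN and ES in the test of the interaction. Size and library series cannot be told apart in RN, so they cannot be told apart in this difference either. The difference of log2 fold-changes (RN minus ES) was -3.27 for Cara14LA (edgeR, SE 0.56, adjusted p = 0.00867), with 210.0 to 454 CPM in RN-S, 8.04 to 25.6 in RN-L, 28.0 to 32.2 in ES-S and 12.4 to 13.7 in ES-L. It was -2.09 for Msp130r2 (edgeR, SE 0.48, adjusted p = 0.0307), with 20.8 to 41.6 CPM in RN-S, 7.01 to 9.27 in RN-L, 5.26 to 7.34 in ES-S and 5.15 to 8.35 in ES-L. Msp130r2 had at least 32 counts in every ES library and Cara14LA at least 85, against at most 10 for Sm29 and 7 for SM30E. The edgeR call of Cara14LA was kept without each of the 12 libraries in turn (adjusted p from 0.00819 to 0.0401), and that of Msp130r2 was lost without 10 of them (adjusted p from 0.0132 to 0.107), with total counts in place of TMM (adjusted p = 0.113) and without the filter on low counts (adjusted p = 0.0745).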

How the results depend on the processing

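Of 162 values that the alternatives gave for the tested comparisons of Sm29, SM30E and EBP, 146 kept the direction and the side of the threshold. Many of these values belong to comparisons called close to fixed above or not read as a result, so the tally does not measure stability. Sm29 between RN-L and RN-S kept its call under 5 of 6 alternatives in processing, and in 2 of the 6 fits with a library left out. Under the replicate block by sampling year, Sm29 was no longer called between RN-L and RN-S (log2 fold-change -3.34, edgeR adjusted p = 0.0669) or between RN-L and ES-L (4.61, adjusted p = 0.0702), and the block changed no other call of the 3 genes in the comparisons tested here, which leave out ALM. For the difference in size effect between RN and ES, which for Sm29 rests on 14 counts in ES and is not read as a result, the fitted value was -6.84 (edgeR adjusted p = 0.0667), and Sm29 was called without the filter on low counts (-6.82, edgeR adjusted p = 9.6e-05), with DESeq2 (-7.34, adjusted p = 0.0160) and in the edgeR fit to all 18 libraries (-6.76, adjusted p = 0.0314). Over the libraries left out in turn, the log2 fold-change of Sm29 ranged from -3.74 to -2.71 between RN-L and RN-S, from 3.74 to 6.52 between RN-L and ES-L, from -8.75 to -4.97 for the difference in size effect, where it was called without ES-L 2011 (-7.52, edgeR adjusted p = 0.0416), and from -4.50 to -4.04 in ALM. That of EBP in RN ranged from -0.03 to 0.49, with the lowest value, without RN-S 2011, on the other side of 0, and that of SM30E for the difference in size effect, -3.70 with all libraries (edgeR adjusted p = 0.222), from -4.52 to 0.10, with the highest without ES-L 2010, which leaves no count of SM30E in ES-L. Without ES-S 2011 no count of Sm29 is left in ES-S, and the fitted 13.24 then depends on the prior count and is no bound. With total counts only and no TMM, Sm29 in ALM had a log2 fold-change of -3.87, and the mean level was 52.8 CPM for Sm29 in ALM-S, 12 for EBP in ALM-L and 1120 for EBP in RN-L, and 3 of 90 level values moved by more than 1 SD. The same scaling moved the median log2 fold-change over all features from -0.04 to 0.38 in RN, and 5121 features were then called higher and 1488 lower, against 3304 and 2983 with TMM. Features called in RN numbered 6287, and 9528 without the filter, 3814 with the block and 2376 to 6654 with a library left out. In ES 1 feature was called, and 0 with total counts only or the block, 40 in the fit to all libraries, 399 with DESeq2, 1767 without the filter and 0 to 886 with a library left out, and in ALM 1, with 0, 0, 114, 346, 771 and 0 to 9 in the same order. Between RN-L and ES-L 8558 were called, and 13733 in the fit to all libraries, and for the difference in size effect 1440, with 712 on total counts, 2958 with DESeq2 and 366 to 2193 with a library left out. Without the filter the untested values were 3.61 for Sm29 and -1.80 for SM30E in ES and 1.13 for SM30E between RN-L and ES-L, none of them called. The library series within RN could not be compared, since RN-L is a series of its own. The comparison of RN-S 2013 alone with ES-S was chosen after seeing the data, and its log2 ratio for the means was lower than that of all RN-S libraries for Sm29 (10.70 against 11.90) and SM30E (3.92 against 4.90). Of the 100 features most like SM30E, 3 were on the biomineralization list by Spearman correlation and 3 over the 12 RN and ES libraries, against 9, and for Sm29 0 over the 12 libraries, against 6. The 9 other biomineralization genes called in RN numbered 7 to 11, and the 2 called for the difference in size effect 1 to 5, over alternatives chosen after seeing the data. Depth limited SM30E in RN-L and ES and Sm29 in ES, with at most 10 counts in a library.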
